A study of Mus musculus with 2 samples.

Results

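The secreted Wnt antagonists Sfrp1, Sfrp2, Sfrp4, Frzb, Wif1, Dkk2 and Dkk3 were followed in dermal cells of untreated skin (UT) and of skin treated with imiquimod (IMQ). They were taken by symbol from the gene list of the count matrices and are 7 of its 31053 entries. Wnt proteins signal by bringing together a Frizzled receptor and the co-receptor Lrp5 or Lrp6, which stabilises β-catenin in the cell. Secreted antagonists act outside the cell: the sFRP proteins, to which Frzb belongs, carry a Frizzled-like domain that binds Wnts, Wif1 also binds Wnts, and Dkk2 binds Lrp5 and Lrp6 instead. Dkk3 is a divergent member of the Dickkopf family without a settled role at these receptors. In skin, Wnt signals between the epidermis and the dermis take part in hair follicle growth and in the identity of dermal fibroblasts.

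Both libraries came from the dermis of C57BL/6 mice of 8 weeks that carried PdgfraDreER-tdTomato, a line in which tamoxifen lets the DreER recombinase, made under the control of the fibroblast gene Pdgfra, switch on the red reporter tdTomato for good. Live cells that were CD45- and tdTomato+ were sorted. By the study's methods, tamoxifen was given before imiquimod, with a washout between. The label thus records Pdgfra expression at that earlier time, in the sorted cell or its ancestors. The IMQ mice had received imiquimod, a Toll-like receptor agonist that causes psoriasis-like inflammation in mice, for 7 days, and the UT mice had received none. There was 1 library per group and the number of mice pooled in each was not given in the sources used here. No spread between mice could be estimated, no test was run, and the intervals below are exact 95% intervals that cover counting error only. Where a count was 0, the share it allows is the one that 3 counts would give, which is below the exact upper limit.

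A cell barcode stands for 1 droplet, and each unique molecular identifier (UMI) for 1 captured transcript. Barcodes with 200 to 5000 detected genes and at most 5% mitochondrial UMIs were kept. These were 1045 of 1415 deposited barcodes in UT, with 1104798 UMIs, and 571 of 5047 in IMQ, with 460947 UMIs. The median depth was 741 UMIs in UT and 659 in IMQ. Only 1 barcode sequence occurred in both deposited matrices, and 0 were among the kept barcodes of both. The transcript Gm42418, which overlaps ribosomal RNA sequence, took 1.38% of kept UMIs in UT and 14.6% in IMQ. Levels are given as CPM, the UMIs of a gene divided by all UMIs of the barcodes taken and scaled to a total of 1000000. The barcodes taken are all kept barcodes of a library unless a cluster or another set is named. The median of 8129 genes with at least 10 UMIs had a log2 ratio of IMQ over UT of -0.61 (1 CPM added). The ratios of Sfrp1, Sfrp2, Wif1, Dkk2 and Dkk3 over all kept barcodes are therefore also set against that gene. Ratios of single antagonists have no CPM added, so the relative values mix both scales, which matters most for the rare Sfrp2.

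Sfrp1 and Dkk2 were the most abundant of the antagonists. Dkk2 made up most of the antagonist UMIs in UT and its level was 4.44 times that of IMQ, while the interval of the Sfrp1 ratio held 0. This contrast was not seen in barcodes with at least 500 genes, where the log2 ratio of Dkk2 was -0.94 (-1.80 to -0.19), or -0.64 (-1.50 to 0.11) relative to the median gene, and that of Sfrp1 -1.43 (-3.34 to -0.01), from 15 and 4 UMIs in IMQ. Over all deposited barcodes the ratio of Dkk2 was -1.66 (-1.98 to -1.35) and that of Sfrp1 -0.51 (-0.89 to -0.13). The median gene of that set was at -0.96. Relative to it, Dkk2 was at -0.70 (-1.02 to -0.39) and Sfrp1 at 0.45 (0.07 to 0.83), so the direction of Sfrp1 depends on the scale there too. Over all kept barcodes, Dkk3 was the only antagonist with at least 10 UMIs whose level was higher in IMQ. The 7 genes together held 413 UMIs in UT (374 CPM, 339 to 412) and 94 in IMQ (204 CPM, 165 to 250), so that their summed log2 ratio was -0.87 (-1.21 to -0.55). Of the 5 antagonists with at least 10 UMIs, 2 (Sfrp2 and Dkk2) were past 2-fold lower in IMQ, against 32% of all genes, and 0 were past 2-fold higher, against 3.73% of all genes. The counts were also 2 and 0 at a limit of 10% mitochondrial UMIs, where 32.3% and 3.33% of genes passed. With TMM factors, which scale by the bulk of genes, 1 was past 2-fold lower (Dkk2) and 1 higher (Dkk3), and 18.9% and 9.15% of genes passed. With at least 500 genes per barcode 1 was past 2-fold lower (Sfrp1) and 1 higher (Wif1), where 27.7% and 12.2% of genes passed. In the fibroblast-like clusters alone, described below, 0 of the 3 measured passed in either direction, against 32.3% and 4.4% of genes. With mitochondrial, ribosomal protein, Gm42418 and AY036118 UMIs left out of the totals, 2 were lower and 1 (Dkk3) higher, against 24.4% and 6.1% of genes.

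**Figure D1:**
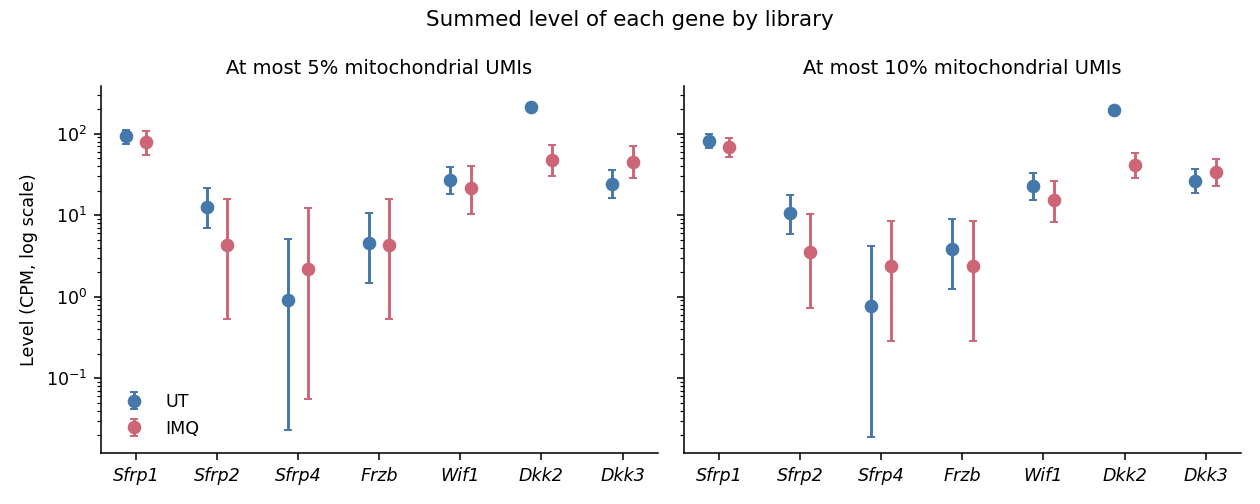
Level of each antagonist (CPM, log axis) in the UT and IMQ libraries, with exact 95% Poisson intervals for counting error, for barcodes with at most 5% (left) or at most 10% (right) mitochondrial UMIs. Dkk2 stands at 212 CPM in UT and 47.7 CPM in IMQ at the 5% limit, while the intervals of the 2 libraries overlap for each of the other genes.

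Among the Wnt-binding antagonists, Sfrp1 had 102 UMIs in UT and 36 in IMQ. This is 92.3 CPM (75.3 to 112) and 78.1 CPM (54.7 to 108), a log2 ratio of -0.24 (-0.83 to 0.32), which becomes 0.36 relative to the median gene, so its direction depends on the scale. Sfrp1 was seen in 52 barcodes of UT, 4.98% of those kept, and in 31 of IMQ, 5.43%. The barcode with the most held 8 of its UMIs in UT and 3 in IMQ, and most positive barcodes held a single one.

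Sfrp2, another Wnt-binding sFRP, was much rarer, with 14 UMIs in 6 barcodes of UT and 2 UMIs in 2 barcodes of IMQ. The levels were 12.7 CPM (6.93 to 21.3) and 4.34 CPM (0.525 to 15.7), and the log2 ratio of -1.55 had an interval from -4.73 to 0.58. Relative to the median gene it was -0.94 (-4.12 to 1.18), under 2-fold. A single UT barcode carried 7 of the 14 UMIs. The Sfrp2 gene overlaps Gm26771 on the other strand, and no source used here says whether the counting used strand. Frzb had 5 UMIs (4.53 CPM) in UT and 2 (4.34 CPM) in IMQ, each in a barcode of its own. Sfrp4 had 1 UMI in each library, at or under the level of 3 counts that bounds detection, so no ratio is given.

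Wif1, which binds Wnts through a domain of another kind, had 30 UMIs in 16 barcodes of UT and 10 UMIs in 4 barcodes of IMQ. Its level was 27.2 CPM (18.3 to 38.8) in UT and 21.7 CPM (10.4 to 39.9) in IMQ. The log2 ratio of -0.32 (-1.52 to 0.75) turned to 0.28 relative to the median gene. In IMQ, 5 of the 10 UMIs were in 1 barcode. Without the top barcode of each library the ratio was -1.04 (-2.78 to 0.37), from 25 and 5 UMIs. In barcodes with at least 500 genes it was 1.36 (0.09 to 2.50), from 26 and 9 UMIs, so the direction depends on the barcodes taken.

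Dkk2, the antagonist that acts at Lrp5 and Lrp6, had 234 UMIs in 45 barcodes of UT and 22 UMIs in 14 barcodes of IMQ. Its level was 212 CPM (186 to 241) in UT and 47.7 CPM (29.9 to 72.3) in IMQ. The log2 ratio was -2.15 (-2.85 to -1.52), and -1.54 (-2.25 to -0.91) relative to the median gene. At the limit of 10% mitochondrial UMIs it was -2.25 (-2.80 to -1.73), from 258 and 35 UMIs. Its share of barcodes was 4.31% (3.16% to 5.72%) in UT and 2.45% (1.35% to 4.08%) in IMQ, so the level differed by more than the share of barcodes did. A positive UT barcode held up to 22 Dkk2 UMIs, with a median of 2, and a positive IMQ barcode up to 4, with a median of 1.

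Dkk3, its divergent relative, had 27 UMIs in 25 barcodes of UT and 21 UMIs in 21 barcodes of IMQ. The levels were 24.4 CPM (16.1 to 35.6) and 45.6 CPM (28.2 to 69.6). The log2 ratio of 0.90 had an interval that began at 0.00 and ended at 1.78, and relative to the median gene it was 1.51 (0.61 to 2.38). At the 10% mitochondrial limit it shrank to 0.36 (-0.40 to 1.12), or 1.01 (0.24 to 1.76) relative to the median gene there. No more than 2 Dkk3 UMIs were found in a UT barcode and no more than 1 in an IMQ barcode.

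Each UMI of a 3′ library counts a transcript once whatever its length, so levels of different genes can be set side by side, although capture may differ between genes. In UT the order was Dkk2, Sfrp1, Wif1, Dkk3, Sfrp2, Frzb and Sfrp4. The intervals of Dkk2 and Sfrp1 did not overlap, nor did those of Sfrp1 and Wif1, while every later neighbour overlapped the one before it. In IMQ the order was Sfrp1, Dkk2, Dkk3 and Wif1, followed by Sfrp2 and Frzb with equal counts and then Sfrp4, and every neighbour overlapped the next. By rank, Dkk2 had more UMIs than 95.3% of the 12947 genes detected in UT and than 83.1% of the 10397 detected in IMQ, whereas Sfrp1 stood above 89.7% and 89.3% and Dkk3 above 67.9% and 82.4%.

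A composition taken within a library does not depend on its total. Of the antagonist UMIs, Dkk2 made up 56.7% (51.7% to 61.5%) in UT and 23.4% (15.3% to 33.3%) in IMQ. Sfrp1 made up 24.7% (20.6% to 29.2%) and 38.3% (28.5% to 48.9%), and Dkk3 6.54% (4.35% to 9.37%) and 22.3% (14.4% to 32.1%). For Dkk2 and Dkk3 the intervals of the libraries did not overlap, and for Wif1, at 7.26% and 10.6%, they did. The shares add up to the whole, so the higher Dkk3 share is not independent of the lower Dkk2 share. The intervals also treat UMIs as independent, although many Dkk2 UMIs shared a barcode. In the fibroblast-like clusters described below, the intervals overlapped for Dkk2 (21.1% in UT and 12.1% in IMQ) and for Dkk3 (17.1% and 30.3%). At least 1 antagonist was seen in 120 UT barcodes, 11.5% (9.61% to 13.6%), and in 65 IMQ barcodes, 11.4% (8.90% to 14.3%). Over all kept barcodes, the share with any antagonist was thus nearly the same in both libraries while the makeup of the UMIs was not.

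To see which barcodes carried the antagonists, the kept barcodes of both libraries were clustered with these 7 genes and the other listed Wnt pathway genes left out of the variable genes. There were 5 clusters. Clusters 1 to 3 were fibroblast-like, with at least 5 of 7 fibroblast markers such as Col1a1 and Dcn in at least 20% of their barcodes. Cluster 1 was led by Pi16, a marker of fascial fibroblasts (446 barcodes in UT, 313 in IMQ), cluster 2 by Igfbp2 (316 and 206), and cluster 3 by Coch, Fmod and Crabp1 among its top genes (225 and 35). Cluster 4 was led by Malat1, a long noncoding RNA kept in the nucleus, and had 33 barcodes in UT and 7 in IMQ. Cluster 5 was led by the MHC class II genes Cd74 and H2-Ab1, with 25 and 10 barcodes. The last 2 stayed unnamed: cluster 5 had 4 enriched myeloid markers beside fibroblast markers, and in cluster 4 all 7 fibroblast markers were present while 3 keratinocyte markers were enriched.

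The Malat1-led cluster stood apart from the rest in depth and in its RNA. Its median barcode held 3648 UMIs in UT and 5689 in IMQ, against 716.5 and 657.5 outside it. Malat1 took 8.88% of its UMIs in UT and 5% in IMQ, and 0.01% of the UMIs of the other UT barcodes and 0.008% of those of the other IMQ barcodes. It made up 3.16% of kept barcodes and 16.2% of kept UMIs in UT, and 1.23% of barcodes and 8.57% of UMIs in IMQ. In IMQ, 5 of its 7 barcodes had at least 10 Malat1 UMIs.

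In UT, the antagonists other than Sfrp4 fell into 2 groups by where most of their UMIs were. Most UMIs of Dkk2, Wif1, Sfrp2 and Frzb in UT were in the Malat1-led cluster, and most of those of Sfrp1 and Dkk3 were in the Pi16-led cluster. In UT, the Malat1-led cluster held 202 of 234 Dkk2 UMIs (86.3%), 24 of 30 Wif1 UMIs (80%), 14 of 14 Sfrp2 UMIs and 4 of 5 Frzb UMIs. In IMQ it held 14 of 22 Dkk2 UMIs (63.6%) and 9 of 10 Wif1 UMIs (90%). Across 7353 UT genes with at least 10 UMIs, the median gene had 20.6% of its UMIs there, 12.7% of genes had at least 50% and 3.69% had at least 80%. The same shares over 3500 IMQ genes were 9.21%, 5.66% and 1.63%. Of the other pair, Sfrp1 had 77 of 102 UMIs in cluster 1 in UT (75.5%) and 28 of 36 in IMQ (77.8%), and Dkk3 had 21 of 27 (77.8%) and 15 of 21 (71.4%). Cluster 1 held 49.2% of all kept UMIs in UT and 54.0% in IMQ. The UT intervals of Sfrp1 (66.0% to 83.5%) and Dkk3 (57.7% to 91.4%) lay above that UT share. In IMQ that of Sfrp1 (60.8% to 89.9%) lay above the IMQ share, but that of Dkk3 (47.8% to 88.7%) held it.

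**Figure D2:**
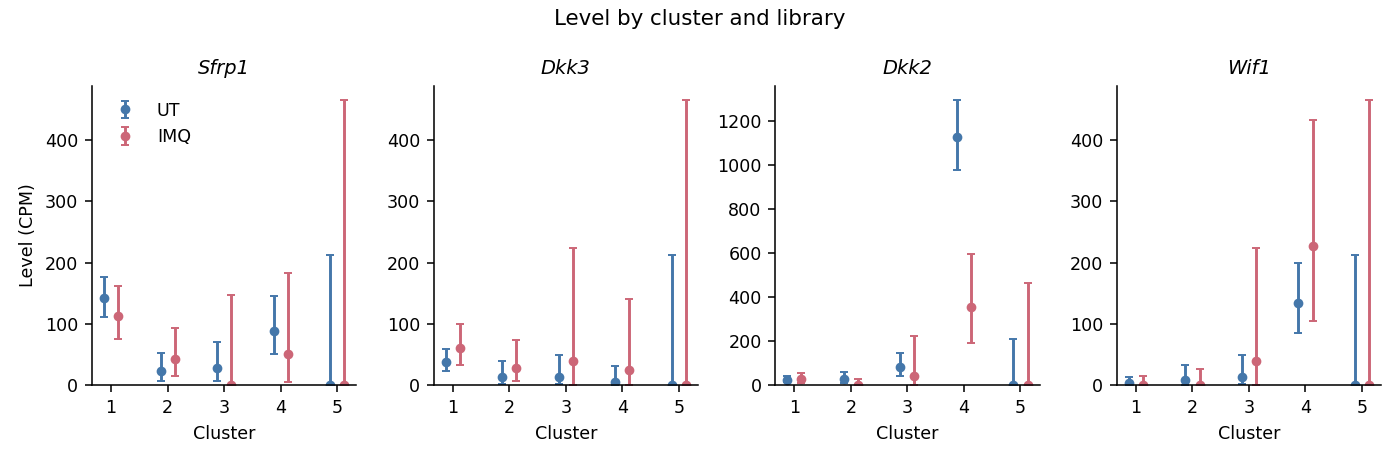
Level of Sfrp1, Dkk3, Dkk2 and Wif1 (CPM, a separate linear axis for each gene) in clusters 1 (Pi16-led), 2 (Igfbp2-led), 3 (Coch and Crabp1), 4 (Malat1-led) and 5 (class II-led) of the UT and IMQ libraries, with exact 95% Poisson intervals. Sfrp1 is at 142 CPM in cluster 1 of UT and Dkk2 at 1128 CPM in cluster 4 of UT, and the wide intervals of cluster 5 come with 0 counts.

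The 4 genes whose UT UMIs were mostly in the Malat1-led cluster all had an entry in the RefSeq promoter table, and the promoters are shown so that their letters can be compared. Each runs from 250 bases before to 50 bases after the RefSeq start, 5′ to 3′ on the strand of the gene, on GRCm38.p6. Capitals mark matches on either strand to CTTTGA or CTTTGT (a core bound by the Tcf and Lef factors of the Wnt pathway), TATAAA (the TATA box), CCAAT (the CCAAT box) and GGGCGG (the GC box). Dkk2 lies at chr3:132085042-132085341 on the plus strand, Wif1 at chr10:121033754-121034053 on the plus strand, Sfrp2 at chr3:83766071-83766370 on the plus strand and Frzb at chr2:80447347-80447646 on the minus strand.
Dkk2: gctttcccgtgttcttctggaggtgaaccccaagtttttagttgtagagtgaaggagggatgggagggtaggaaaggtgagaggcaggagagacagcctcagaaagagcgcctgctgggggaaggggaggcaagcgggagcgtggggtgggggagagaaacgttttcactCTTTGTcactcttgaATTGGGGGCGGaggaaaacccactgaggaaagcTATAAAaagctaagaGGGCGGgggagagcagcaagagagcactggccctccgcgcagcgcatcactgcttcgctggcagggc
Wif1: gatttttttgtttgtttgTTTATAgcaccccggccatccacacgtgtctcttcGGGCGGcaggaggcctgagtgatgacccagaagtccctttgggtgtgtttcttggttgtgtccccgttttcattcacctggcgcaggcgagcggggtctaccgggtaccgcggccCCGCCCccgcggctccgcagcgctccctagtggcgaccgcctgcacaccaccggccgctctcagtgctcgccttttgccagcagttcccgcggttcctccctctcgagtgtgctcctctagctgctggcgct
Sfrp2: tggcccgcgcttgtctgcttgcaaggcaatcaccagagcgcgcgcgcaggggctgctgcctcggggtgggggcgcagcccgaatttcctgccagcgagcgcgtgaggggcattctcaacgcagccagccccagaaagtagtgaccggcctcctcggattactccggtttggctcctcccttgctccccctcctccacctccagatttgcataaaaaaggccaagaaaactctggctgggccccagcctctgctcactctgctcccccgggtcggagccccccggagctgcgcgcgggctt
Frzb: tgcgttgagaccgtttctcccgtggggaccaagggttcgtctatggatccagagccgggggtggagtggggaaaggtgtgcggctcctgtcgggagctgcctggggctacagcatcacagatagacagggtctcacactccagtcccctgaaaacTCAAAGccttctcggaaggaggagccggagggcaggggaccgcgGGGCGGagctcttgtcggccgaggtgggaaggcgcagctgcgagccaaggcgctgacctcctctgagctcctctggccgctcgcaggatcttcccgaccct
The Dkk2 promoter held TATAAA at position -32 from the start, CTTTGT at -80, GGGCGG at -60 and -17, and CCAAT on the opposite strand at -65, with no overlap between matches. Frzb held CTTTGA on the opposite strand at -95 and GGGCGG at -51, and Wif1 held TATAAA on the opposite strand at -232 and GGGCGG at -197 and, on the opposite strand, at -82. Sfrp2 held none of these letters in this window. Of 32851 promoters of the same length, 31.2% held CTTTGA or CTTTGT, 13.6% TATAAA, 37.4% CCAAT and 35.7% GGGCGG. A match describes letters only, and no shared motif was found in all 4. The GC content was 57.7% for Dkk2, 63.0% for Wif1, 66.0% for Sfrp2 and 64.7% for Frzb, against a median of 52.7% over all promoters.

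In the GENCODE M21 annotation of the same build, Dkk2 (ENSMUSG00000028031) spans chr3:132085292-132180304 and Wif1 (ENSMUSG00000020218) chr10:121033960-121100650, both on the plus strand. Sfrp2 (ENSMUSG00000027996) spans chr3:83766321-83774316 on the plus strand and Frzb (ENSMUSG00000027004) chr2:80411970-80447625 on the minus strand. Sfrp1 (ENSMUSG00000031548) is at chr8:23411502-23449632 and Sfrp4 (ENSMUSG00000021319) at chr13:19623104-19632994, both on the plus strand, and Dkk3 (ENSMUSG00000030772) is at chr7:112116017-112159057 on the minus strand. All are protein-coding, and apart from Sfrp2 none overlaps another gene of that annotation.

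Within the Malat1-led cluster, Dkk2 was the leading antagonist of UT. It had 202 UMIs in 20 of 33 barcodes, 1128 CPM (978 to 1295), and in IMQ 14 UMIs in 7 of 7 barcodes, 354 CPM (194 to 595). The log2 ratio inside the cluster was -1.67 (-2.57 to -0.89), where 34.7% of genes were past 2-fold lower, 12.5% were past 2-fold higher and the median gene was at -0.37. Outside it the levels were 34.6 CPM from 32 UMIs and 19.0 CPM from 8 UMIs, and the ratio of -0.86 had an interval from -2.19 to 0.28. The counting interval of the Dkk2 ratio thus excluded 0 in that cluster, and no difference was detectable outside it at this depth. These intervals treat UMIs as independent, although many Dkk2 UMIs shared a barcode. They do not cover the spread between barcodes, of which IMQ had only 7 in the cluster. Whether the 2 ratios differ was not tested.

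Inside the cluster, the values per barcode overlapped between the libraries. Across the 33 UT barcodes of the cluster, the lowest Dkk2 count was 0, the median 5 and the highest 22, and among the 20 positive ones the median was 9.5. The 7 IMQ barcodes held 4, 4, 2, 1, 1, 1 and 1 Dkk2 UMIs. Per 10000 UMIs of the barcode, the 33 UT barcodes had a median of 11.5, from 0 to 61.1, and the 7 IMQ barcodes a median of 3.71, from 1.37 to 11, so the IMQ range lay inside that of UT. Among the 20 positive UT barcodes the median was 26.0 and the lowest value 1.82.

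**Figure D3:**
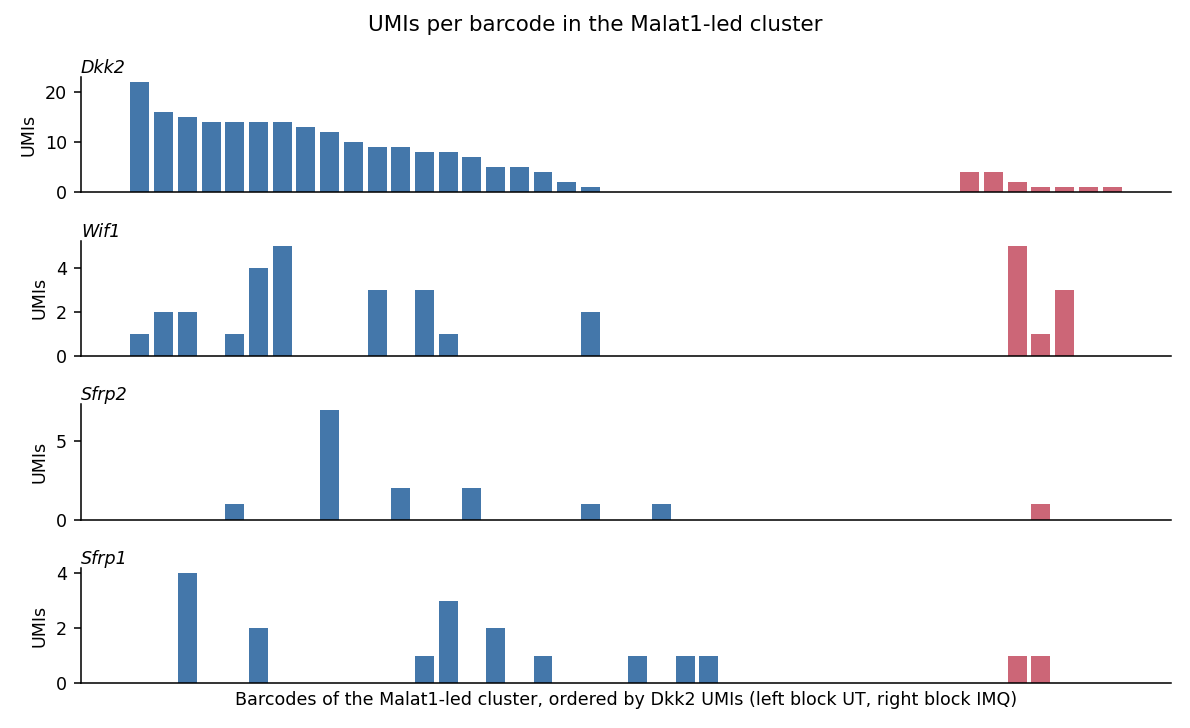
UMIs of Dkk2, Wif1, Sfrp2 and Sfrp1 in each barcode of the Malat1-led cluster (1 bar position per barcode, ordered by Dkk2, with 33 UT barcodes in the left block and 7 IMQ barcodes in the right block). Dkk2 reaches 22 UMIs in UT and 4 in IMQ, all 10 UT barcodes with Wif1 also have Dkk2, and the 13 UT barcodes without Dkk2 form the empty stretch in the middle of the upper panels.

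Wif1 did not have the pattern of Dkk2 inside this cluster. It had 24 UMIs in 10 UT barcodes, 134 CPM (85.9 to 199), and 9 UMIs in 3 IMQ barcodes, 228 CPM (104 to 432). Its log2 ratio there was 0.76 (-0.52 to 1.92), in the opposite direction to the -0.32 over all kept barcodes, and both intervals held 0. Sfrp2 had 14 UMIs against 1, and Frzb 4 against 1. Of the antagonist UMIs in the cluster, Dkk2 made up 77.4% (71.8% to 82.3%) in UT and 50% (30.7% to 69.4%) in IMQ, and Wif1 9.20% (5.98% to 13.4%) and 32.1% (15.9% to 52.4%). Outside the cluster Sfrp1 was the largest part of the antagonist UMIs in both libraries, with 56.6% in UT and 51.5% in IMQ, followed by Dkk2 in UT (21.1%) and by Dkk3 in IMQ (30.3%). The summed level of the 7 genes outside the cluster was 164 CPM in UT and 157 CPM in IMQ, with a log2 ratio of -0.07 (-0.51 to 0.36).

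**Figure D4:**
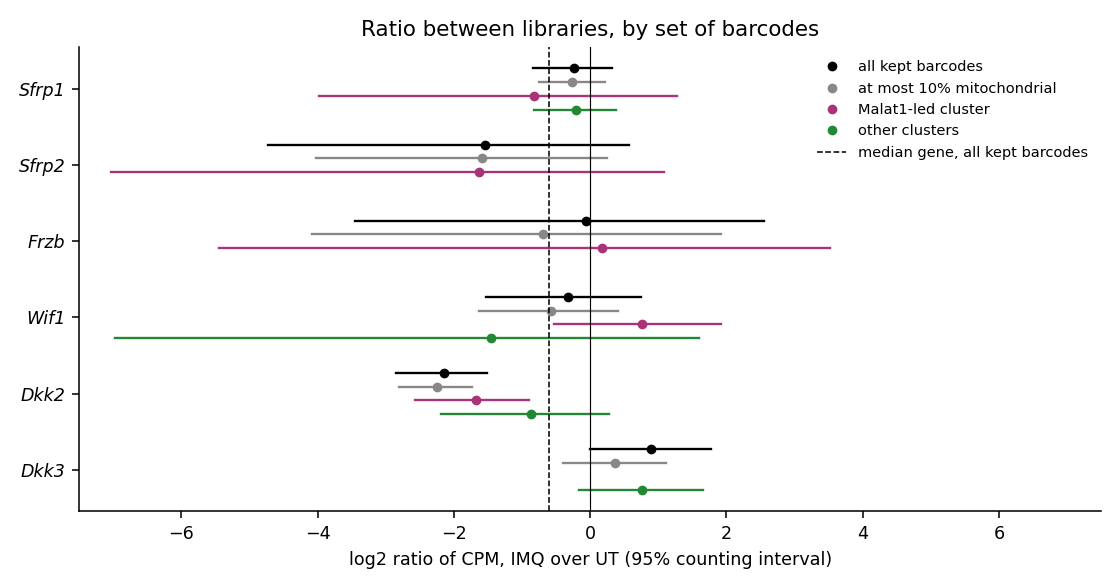
log2 ratio of IMQ over UT with exact 95% counting intervals for 6 antagonists, over all kept barcodes, at the 10% mitochondrial limit, in the Malat1-led cluster and in the other clusters, with the median gene of all kept barcodes as a dashed line. Dkk2 is at -2.15 over all kept barcodes, -1.67 in the Malat1-led cluster and -0.86 outside it, and ratios with at most 3 UMIs in both libraries are not drawn.

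Depth was matched by thinning each barcode to 400 UMIs, which left out 73 shallower barcodes in UT and 33 in IMQ. In UT, Dkk2 was then seen in 12 of 33 barcodes of the Malat1-led cluster, 36.4% (20.4% to 54.9%), and in 11 of 939 others, 1.17% (0.586% to 2.09%). In IMQ it was seen in 3 of 7, 42.9% (9.90% to 81.6%), and in 2 of 531 others, 0.377% (0.0456% to 1.35%). Sfrp1 was then seen in 0 of 33 UT barcodes of the cluster, which allows a share of up to 9.09%, and in 17 of 939 others, 1.81%, so no difference was detectable at this depth. Before thinning it was seen in 9 of 33 (27.3%) and in 43 of 1012 (4.25%), and its level was 89.4 CPM in the cluster and 92.9 CPM outside it. Over all kept barcodes the thinned share of Dkk2 was 2.37% (1.51% to 3.53%) in UT and 0.929% (0.302% to 2.15%) in IMQ, that of Sfrp1 1.75% and 2.60%, and that of Dkk3 0.823% (0.356% to 1.62%) and 2.04% (1.02% to 3.63%). As a background, in the class II-led cluster 0 of 25 UT barcodes and 0 of 10 IMQ barcodes had a UMI of any of the 7 genes, which allows shares of up to 12.0% and 30% (exact upper limits 13.7% and 30.8%) at median depths of 411 and 562 UMIs. Fibroblast markers summed to 461 CPM in those UT barcodes and to 44893 CPM in those IMQ barcodes.

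The UT barcodes of the Malat1-led cluster were not of 1 kind, and the Dkk2 UMIs marked a part of them. In the 20 with Dkk2, keratinocyte markers summed to 101 CPM, with 3 of 7 markers seen in 8 barcodes, and in the 13 without it they summed to 16193 CPM, with 4 of 7 seen in 5 barcodes and 51.1% of the UMIs in 1 of these. Depth in the 13 barcodes without Dkk2 ran from 568 to 24879 UMIs, with the next deepest at 23202, so the deepest weigh most in these sums. Papillary fibroblast markers such as Crabp1 and Ntn1 summed to 2819 CPM (224 UMIs) with Dkk2 and 181 CPM (18 UMIs) without. Most of these UMIs were of Crabp1, which had 172 in the UT cluster. Crabp1 was at 961 CPM there and at 1597 CPM in cluster 3 of UT, where Dkk2 was at 83.0 CPM. Dermal papilla markers such as Rspo3 and Corin summed to 478 CPM (38 UMIs) with Dkk2 and 20.1 CPM (2 UMIs) without. Most of these were of Rspo3, also counted below as a Wnt agonist, which had 26 UMIs in the UT cluster. Fascial fibroblast markers summed to 478 CPM with Dkk2 and 1075 CPM without, and reticular fibroblast markers to 126 and 442 CPM. General fibroblast markers summed to 4379 CPM in the barcodes with Dkk2 and 29683 CPM in those without, and to 118219 CPM in the Pi16-led cluster of UT. Myeloid, T cell, mural, melanocyte and adipocyte markers had 0 UMIs in the 20 Dkk2 barcodes, endothelial markers had 1 and Schwann cell markers had 3. In the 7 IMQ barcodes keratinocyte markers had 0 UMIs, papillary markers 1114 CPM, fascial markers 709 CPM, reticular markers 152 CPM and dermal papilla markers 101 CPM, while 92.4% of the fibroblast marker UMIs were in a single barcode. Crabp1 held 31 of the 44 papillary marker UMIs there, with 18 in 1 barcode. What part these differences in makeup have in the Dkk2 ratio was not tested.

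Antagonists met in the same barcodes along the same lines. In UT, Wif1 was seen in 11 of 45 Dkk2 barcodes, 24.4% (12.9% to 39.5%), and in 5 of 1000 without Dkk2, 0.50% (0.163% to 1.16%). All 5 Frzb barcodes and 5 of 6 Sfrp2 barcodes had Dkk2. In IMQ, Wif1 was seen in 3 of 14 Dkk2 barcodes and in 1 of 557 without Dkk2. Barcodes with Dkk2 were deeper, with a median of 1917 UMIs against 715 in UT and 1706.5 against 656 in IMQ. After thinning, Wif1 was left in 2 of 23 Dkk2 barcodes of UT and in 2 of 949 others. At least 3 of the antagonists occurred together in 8 UT and 3 IMQ barcodes, all in the Malat1-led cluster.

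Inside that cluster, Wif1 was seen in 10 of the 20 UT barcodes with Dkk2 and in 0 of the 13 without, which allows a share of up to 23.1%. Dkk2 and Sfrp1 met in 6 UT barcodes, all in the Malat1-led cluster. Outside the cluster, 0 of 25 Dkk2 barcodes of UT had Sfrp1, which allows a share of up to 12.0%, against 43 of 987 barcodes without Dkk2, 4.36%. Sfrp1 and Dkk3 met in 3 barcodes of each library, 5.77% of the Sfrp1 barcodes in UT and 9.68% in IMQ, against 2.22% and 3.33% of barcodes without Sfrp1.

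The fibroblast genes seen beside each antagonist differed in the same way in UT. These partner shares were not matched for depth, and barcodes with an antagonist were deeper than the others. The median UMIs in UT were 1279 against 714 for Sfrp1, 1917 against 715 for Dkk2, 3038.5 against 733 for Wif1 and 1129 against 732.5 for Dkk3. What part depth has in the shares was not tested. Pi16 was in 61.5% (47.0% to 74.7%) of Sfrp1 barcodes and 17.8% (15.5% to 20.3%) of the others, and Ctla2a in 34.6% and 15.0%. Crabp1, a papillary fibroblast gene that binds retinoic acid in the cell, was in 13.5% of Sfrp1 barcodes and 15.4% of the others, but in 51.1% (35.8% to 66.3%) of Dkk2 barcodes against 13.7% (11.6% to 16.0%), and in 75.0% of Wif1 barcodes against 14.4%. Coch was in 22.2% (11.2% to 37.1%) of Dkk2 barcodes and 1.40% of the others. Ctla2a was in 4.44% of Dkk2 barcodes against 16.5%. Dkk3 barcodes had Pi16 in 36.0% (18% to 57.5%) against 19.6%, with overlapping intervals.

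In IMQ these partner shares, also not matched for depth, were different for Sfrp1. Pi16 was in 12.9% (3.63% to 29.8%) of Sfrp1 barcodes and 7.96% of the others, and Ctla2a in 48.4% and 48.7%, so neither could be told from the others at this depth. Crabp1 was still in 3 of 14 Dkk2 barcodes, 21.4% (4.66% to 50.8%), against 6 of 557, 1.08% (0.396% to 2.33%). Clec11a, a reticular fibroblast gene, was in 42.9% (21.8% to 66.0%) of Dkk3 barcodes against 15.8% (12.9% to 19.1%), whereas in UT it was in 20% and 14.7%.

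No antagonist had a UMI in 5% of kept barcodes of both libraries, so the genes most like each were sought at a limit of 2%, among 2565 genes. For Dkk2, the highest Pearson correlations of log-scaled UMIs over barcodes were with Gadd45b (0.33 in UT, 0.38 in IMQ), Malat1 (0.47 and 0.30) and Ifitm1 (0.42 and 0.28), over 1045 UT and 571 IMQ barcodes. For Sfrp1 they were with Gpx3 (0.25 and 0.19), C1s1 (0.17 and 0.18) and Cxcl12 (0.25 and 0.14), and for Dkk3 the lower of both values was at most 0.103. Barcodes of 1 library share its depth range and its free RNA, and in counts this sparse such values only describe.

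The rest of the Wnt pathway was counted in the lists of genes with at least 10 UMIs. For the counts and medians 1 CPM was added before the ratio, while ratios of single genes in the text have none added. The counts past 2-fold are to be read against all genes, of which 32% were lower and 3.73% higher. Of the ligands 4 of 19 were measured, and 2 were past 2-fold lower in IMQ, with a median log2 ratio of -1.04 against -0.61 over all genes. Wnt5a, which signals mainly without β-catenin, had 28 UMIs in UT and 4 in IMQ, and Wnt11 had 9 and 1. Wnt5b had 8 and 2, and Wnt6 had 14 (12.7 CPM) and 6 (13.0 CPM). Of the Wnt6 UMIs, 13 in UT and all 6 in IMQ were in the Malat1-led cluster.

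Of the agonists, R-spondins that hold Frizzled receptors at the surface and Ndp, 2 of 5 were measured, with 1 past 2-fold lower and a median of -1.67. Rspo1 had 166 UMIs in UT and 37 in IMQ, with a log2 ratio of -0.90 (-1.46 to -0.38). Rspo3 had 31 and 2, a ratio of -2.69 (-5.80 to -0.72), and 26 of its 31 UT UMIs were in the Malat1-led cluster. Of the receptors and co-receptors 9 of 19 were measured, 4 past 2-fold lower and 1 higher in IMQ, with a median of -0.59. Ryk, at 100 and 102 CPM, and Fzd2, at 57.0 and 39.0 CPM, had the most UMIs. Lgr4, a receptor of R-spondins, had 11 UMIs in UT and 13 in IMQ, with a log2 ratio of 1.5 (0.23 to 2.80), and Lrp5 had 10 and 6. Fzd3 had 17 UMIs and Ror2 had 11 in UT, and both had 0 in IMQ, so the exact upper limits of their log2 ratios were -0.78 and -0.07. Set at 3 counts in IMQ (6.51 CPM) their ratios would be -1.24 and -0.61, with 3 receptors past 2-fold lower and the same median.

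Of the other extracellular antagonists 6 of 14 were measured, 4 past 2-fold lower and 0 higher, against 32% and 3.73% of all genes, with a median of -1.5. In the fibroblast-like clusters alone 1 of the 3 measured was past 2-fold lower, and the median was -0.67 against -0.62 over all genes. Notum, an enzyme that removes the lipid of Wnts, had 46 UMIs in UT and 3 in IMQ, with a log2 ratio of -2.68 (-5.01 to -1.04). The UT UMIs were in 11 barcodes, with 19 in 1 of them, and those of IMQ in 2. Sostdc1, a secreted antagonist of Wnt and BMP signals, had 41 UMIs in only 6 UT barcodes and 1 UMI in IMQ, a ratio of -4.10 (-9.43 to -1.54). Every UMI of both genes, in both libraries, was in the Malat1-led cluster, as were most of those of Dkk2. Igfbp4 had 56 and 18 UMIs, and Kremen1, a receptor of Dickkopf proteins, had 39 and 8, a ratio of -1.02 (-2.33 to 0.09).

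Inside the cell, 15 of 18 listed pathway genes were measured, and 6 were past 2-fold lower and 0 higher, with a median of -0.93, a count near the 32% of all genes. Gsk3b, a kinase of the β-catenin destruction complex, had 120 UMIs in UT and 11 in IMQ, with a log2 ratio of -2.19 (-3.23 to -1.30), and Ctnnbip1, an inhibitor of β-catenin, had 42 and 3. Aes, a groucho-type co-repressor, had 387 and 104, and Csnk1a1 had 198 and 46. Tcf7l1 (42 and 17) and Axin1 (12 and 4) had the highest ratios of the list, at -0.04 and -0.32. Of the pathway targets 11 of 16 were measured, 4 past 2-fold lower and 1 higher, also near the share over all genes, with a median of -0.47. Cyr61 had 522 and 57 UMIs, with 391 of those in UT from the Malat1-led cluster, and Twist1 had 343 and 103. Ccnd1 had 86 and 8, a ratio of -2.17 (-3.42 to -1.12), with 0 UMIs in the Malat1-led cluster of either library, and Nkd2, a feedback inhibitor of the pathway, had 42 and 3. Cd44, with 14 and 13 UMIs, and Ctgf, with 18 and 11, had the highest ratios, 1.15 (-0.05 to 2.35) and 0.55. Lef1, named here after its values were seen, had 29 of 29 UT UMIs and 6 of 7 IMQ UMIs in the Malat1-led cluster. For the 7 secreted antagonists on the same scale, the median of the 5 measured was -0.31, with 2 past 2-fold lower.

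**Figure D5:**
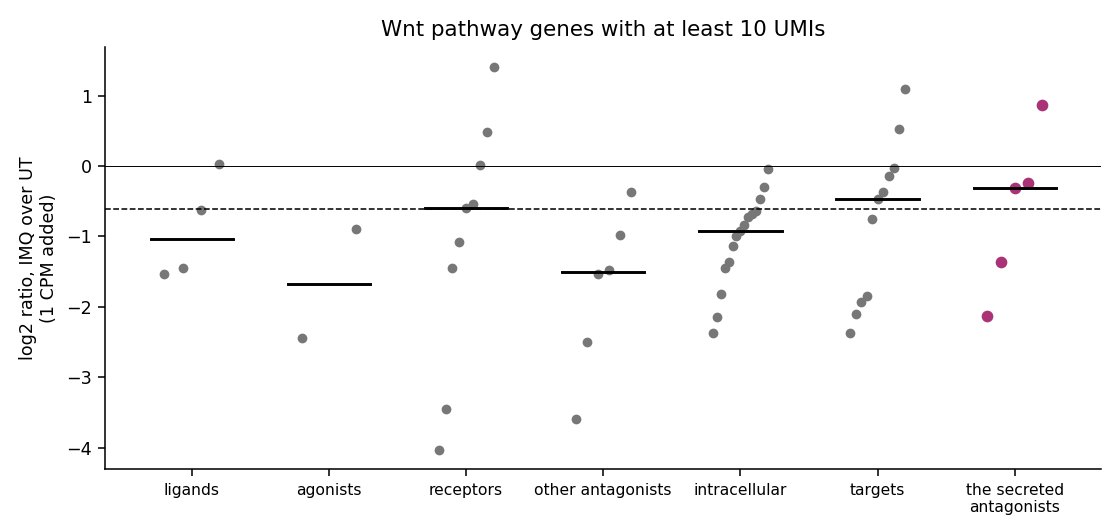
log2 ratio of IMQ over UT (1 CPM added) of each Wnt pathway gene with at least 10 UMIs, by list, with the list median as a bar and the median of all genes at -0.61 as a dashed line. The other antagonists have a median of -1.5 and the secreted antagonists described here -0.31, with Dkk2 the lowest point of the last column.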

How the data were processed

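Single-cell RNA sequencing libraries were made with the Chromium 3′ v3 kit. The authors deposited, for each library, raw UMI counts per gene and barcode, written by Cell Ranger (3.0.0 for UT and 3.1.0 for IMQ per the file headers). The submitters' processing notes name mm10; the annotation was not given in the sources used here, and 31011 of 31053 gene identifiers were found in GENCODE M21. The study counts more IMQ cells after its filters than there are barcodes in the deposited IMQ matrix, so that matrix may not be the one it analysed. Its UT count is also above the number that its gene and mitochondrial limits leave here. The members and lists were chosen with earlier results of these data known.

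The limits on genes and mitochondrial UMIs are those of the study. Doublets were kept, since the study's caller was not used here, and removing the 12 UT and 23 IMQ barcodes with the highest Scrublet scores (scanpy 1.11.5) was an alternative. Clustering used Seurat 5.3.0 in R 4.3.3 (integration with 30 dimensions, 2000 variable genes, 20 principal components, resolution 0.5). A cluster was called fibroblast-like with at least 3 fibroblast markers in 20% of its barcodes and under 3 enriched markers (log2 of at least 2, 20 CPM added) of any other type. Poisson, Clopper-Pearson and conditional binomial intervals at 95% came from scipy 1.17.1. The ratio and its interval were checked only on library totals simulated from the Poisson model that the interval assumes. That check held no spread between barcodes, so it does not bear on UMIs that share a barcode. Alternatives included TMM factors (edgeR 4.0.16). The named Wnt genes are the 2 highest, 2 lowest and 2 most abundant of each list. With 1 library per group there is no replicate check.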

Additional observations from a re-analysis of the deposited data

How the results depend on the processing

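No paired analysis was possible because each group has 1 library. Of 64 recomputed antagonist ratios 56 moved by less than their counting interval. The intervals of Sfrp2 (-4.73 to 0.58) and Frzb (-3.45 to 2.55) were wide, so few shifts could exceed them. The 2 antagonists past 2-fold over all kept barcodes, Sfrp2 and Dkk2, did not change sign in any ratio given. Wif1 was not past 2-fold there but was past 2-fold higher, with the opposite sign, with at least 500 genes. With at least 500 genes per barcode the log2 ratio was -1.43 for Sfrp1, -0.94 for Dkk2 and 1.36 for Wif1. In fibroblast-like clusters only, that of Dkk2 was -0.86. Splits chosen after seeing the data gave -0.86 without the Malat1-led cluster and -0.55 under 10 Malat1 UMIs for Dkk2, and 0.76 in that cluster and 0.85 at 10 or more Malat1 UMIs for Wif1. TMM factors, which put the median gene at -0.14, turned Sfrp1 to 0.24 and took Dkk3 past 2-fold at 1.38. The Sfrp1 share of antagonist UMIs was 56.6% in UT and 51.5% in IMQ in fibroblast-like clusters and 11.8% in IMQ with 500 genes. That of Dkk2 was 21.1% and 12.1% in fibroblast-like clusters, and in IMQ 44.1% with 500 genes and 35.1% over all deposited barcodes. Barcodes with any antagonist were 24.4% in UT and 35.1% in IMQ with 500 genes, and 5.45% and 5.95% after thinning. Thinning took Wif1 among UT Dkk2 barcodes to 8.70%, Sfrp1 among Dkk2 barcodes to 0 in UT and 0 in IMQ, and Dkk3 among UT Sfrp1 barcodes to 0. All 18 recomputed shares of UMIs in the Malat1-led cluster stayed within their intervals. With a minimum of 1 UMI, 6 of 9 ligands and 3 of 5 agonists were past 2-fold lower. With that minimum 3 of 17 receptors and 2 of 16 targets were past 2-fold higher. The median gene was then at -0.72, and the share of all genes past 2-fold is not given for that minimum. At the 10% mitochondrial limit 2 of 3 agonists were lower (32.3% of all genes) and 0 of 12 targets higher (3.33%). With TMM 1 of 4 ligands and 2 of 9 receptors were lower (18.9% of all genes). The cause of these changes was not tested. Depth is also a limit: Sfrp4, Frzb and, in IMQ, Sfrp2 rest on 5 UMIs or fewer.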

Other observations

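Some antagonist UMIs lay in barcodes outside the limits. A single IMQ barcode of 48937 UMIs and 6474 genes, over the maximum of 5000 genes, held 28 Dkk2, 21 Wif1, 3 Sfrp1, 1 Sfrp2 and 1 Frzb UMIs beside 3241 Malat1 UMIs and 20 Crabp1 UMIs. By itself it had more Dkk2 UMIs than the 22 of all kept IMQ barcodes and more Wif1 UMIs than their 10. The 2 UT barcodes over that maximum had 0 Dkk2 and 0 Wif1 UMIs. Another IMQ barcode, with 2277 UMIs of which 17.1% were mitochondrial, held 21 Dkk2 UMIs and 1 Malat1 UMI.

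The 3621 IMQ barcodes with fewer than 200 genes had Sfrp1 at 35.5 CPM (25.5 to 48.1), Dkk2 at 26.8 CPM (18.2 to 38.1) and Dkk3 at 21.6 CPM (14.0 to 31.9), from 41, 31 and 25 UMIs. Sfrp4, which had 1 UMI in the kept IMQ barcodes, had 9 in these, in 6 barcodes, at 7.79 CPM (3.56 to 14.8). Wif1 had 2 UMIs there and Frzb 0. In kept IMQ barcodes outside the Malat1-led cluster Dkk2 was at 19.0 CPM, from 8 UMIs.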
